A study of Homo sapiens with 22 samples.

Results

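The HOX genes described here are 38 of the 20033 protein-coding genes with a canonical start site in GENCODE release 44, chosen by name from the HOXA cluster on chromosome 7, HOXB on chromosome 17, HOXC on chromosome 12 and HOXD on chromosome 2. The set leaves out a HOX gene that was not analysed here. Each cluster was read from the first to the last of these genes with 50 kb to each side, on hg38. The windows were chr7:27050354-27250091, chr17:48478526-48778750, chr12:53888831-54106030 and chr2:176042721-176240907, with 10, 10, 9 and 9 genes.

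HOX genes encode transcription factors that bind DNA through a homeodomain and give cells their position along the body axis. They lie in clusters, and genes at one end (low numbers) are used in the head and trunk while those at the other end (high numbers) are used in tail, limb and genital structures. Trithorax complexes, with the H3K4 methyltransferase KMT2A, keep active HOX genes open, and Polycomb complexes keep the others silent. Posterior HOXD genes, among them HOXD10, HOXD11 and HOXD13, are known to be active in Ewing sarcoma, a bone and soft tissue tumour driven in most cases by the fusion protein EWSR1::FLI1.

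The cells were TC-32, an established Ewing sarcoma line, and all data come from this 1 line. In each arm the cells received 20 nM siRNA, either the control siNEG or siFLI1, which is directed at FLI1 and was used to deplete the fusion. Libraries were immunoprecipitated for H3K4me3 (a histone methylation of active promoters), H3K27ac (an acetylation of active promoters and enhancers) and ETS1, an ETS family factor that binds GGAA sequences, with 2 libraries per arm and target. The replicated H3K27ac libraries carried an Active Motif antibody label, and 1 further H3K27ac library per arm carried the label ab4729 beside the same catalogue number and was kept apart. Whether it was made with another antibody is not clear from the labels. The deposited values were 14 peak lists, each called on 1 library, and the sequencing depth of the libraries was not given in the sources used here.

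The H3K4me3 lists held 18344 to 19720 peaks, the H3K27ac lists 60027 to 65501, the ETS1 lists 208 and 302 in siNEG and 1633 and 2635 in siFLI1, and the ab4729 lists 32738 in siNEG and 51663 in siFLI1. Nothing in the labels says that replicates came from separate cultures, so p-values measure only the spread between lists, which may be technical. The pair of ETS1 lists from siFLI1 cells had summit heights whose differences were under the sampling noise (chi-square per degree of freedom 0.411 over 494 regions), and it was counted as 1 sample. The peak names in the list of replicate 1 also carry the number 2. The siFLI1 H3K27ac pair gave 0.919 over 19456 regions, also below counting noise, which is 1, and the other pairs 0.820 to 1.08. Its lists were kept as 2, which they may not be. The mean lengths are the same if they count as 1, but the SD and n of that arm, the lack of overlap between arms and calls that ask for both of its lists then have no replicate support on the siFLI1 side. All 9 Ewing sarcoma marker genes examined (such as CD99, NKX2-2 and NR0B1) had H3K4me3 at the start site in every list. Of 11 marker genes of blood, epithelium, endothelium and muscle, none had it in both lists of an arm.

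Promoter sequences of 4 posterior genes, HOXD13, HOXD11, HOXD10 and HOXA13, are shown because they carry very different marks below. All are rich in CpG over the 250 bases upstream of the start site. Within 500 bp to each side of it HOXD13, HOXD11 and HOXA13 have 104, 123 and 131 CpG. HOXD10 has 54 there, below the median of 66.0 over all protein-coding genes. Each line gives the 250 bases upstream of the start site from the RefSeq table (GRCh38.p14), 5′ to 3′ on the gene's strand, with every CG in capitals. The table held 20 of the 38 genes. The stretches are chr2:176092471-176092720 (+) for HOXD13, chr2:176107030-176107279 (+) for HOXD11, chr2:176116528-176116777 (+) for HOXD10 and chr7:27200092-27200341 (-) for HOXA13.
HOXD13: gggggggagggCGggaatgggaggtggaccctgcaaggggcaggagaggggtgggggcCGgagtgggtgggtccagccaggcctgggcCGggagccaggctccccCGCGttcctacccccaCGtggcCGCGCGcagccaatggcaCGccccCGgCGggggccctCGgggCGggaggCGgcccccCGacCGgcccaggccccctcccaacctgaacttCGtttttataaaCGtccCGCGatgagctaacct
HOXD11: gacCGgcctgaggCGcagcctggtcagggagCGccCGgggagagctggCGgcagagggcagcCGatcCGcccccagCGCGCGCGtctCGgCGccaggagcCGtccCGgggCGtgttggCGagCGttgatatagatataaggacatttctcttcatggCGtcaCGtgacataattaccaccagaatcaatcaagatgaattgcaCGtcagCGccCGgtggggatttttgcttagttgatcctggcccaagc
HOXD10: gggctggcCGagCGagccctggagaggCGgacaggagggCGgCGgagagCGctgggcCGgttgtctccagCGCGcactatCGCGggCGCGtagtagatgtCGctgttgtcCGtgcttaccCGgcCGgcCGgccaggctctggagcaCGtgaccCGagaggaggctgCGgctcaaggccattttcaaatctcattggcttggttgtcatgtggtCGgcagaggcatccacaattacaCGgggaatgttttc
HOXA13: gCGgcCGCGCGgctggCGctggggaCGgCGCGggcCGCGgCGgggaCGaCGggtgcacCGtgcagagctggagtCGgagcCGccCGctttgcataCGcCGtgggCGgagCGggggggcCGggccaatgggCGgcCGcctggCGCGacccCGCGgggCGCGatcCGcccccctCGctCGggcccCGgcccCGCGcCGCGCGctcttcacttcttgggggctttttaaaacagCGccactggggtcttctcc
They hold 21, 23, 23 and 40 CG, against a median of 10.0 over 27305 RefSeq promoters, of which 93.3% hold a CG and 29.1% hold 21 or more.

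H3K4me3 lay within 1 kb of the canonical start site, in both lists of the arm, at 17 of 38 HOX genes in siNEG cells and at 18 in siFLI1 cells. Over all protein-coding genes the share was 60.7% in siNEG and 61.8% in siFLI1, so the HOX shares of 44.7% and 47.4% were lower. The genes were split by cluster: 0 of 10 in HOXA in both arms, 7 of 10 in HOXB (8 in siFLI1), 6 of 9 in HOXC (5 in siFLI1) and 4 of 9 in HOXD (5 in siFLI1). CpG counts overlapped between marked and unmarked genes, and their relation to the marks was not tested. Within 500 bp of the start site the 16 genes with H3K4me3 in all 4 lists had a median of 79.5 CpG (21 to 123). The 18 with none had 64.0 (25 to 103), and those of them outside HOXA had 25 (HOXC6) to 80 (HOXD12). The 10 HOXA genes alone had 85.0 (54 to 131), against 66.0 over all protein-coding genes.

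**Figure D1:**
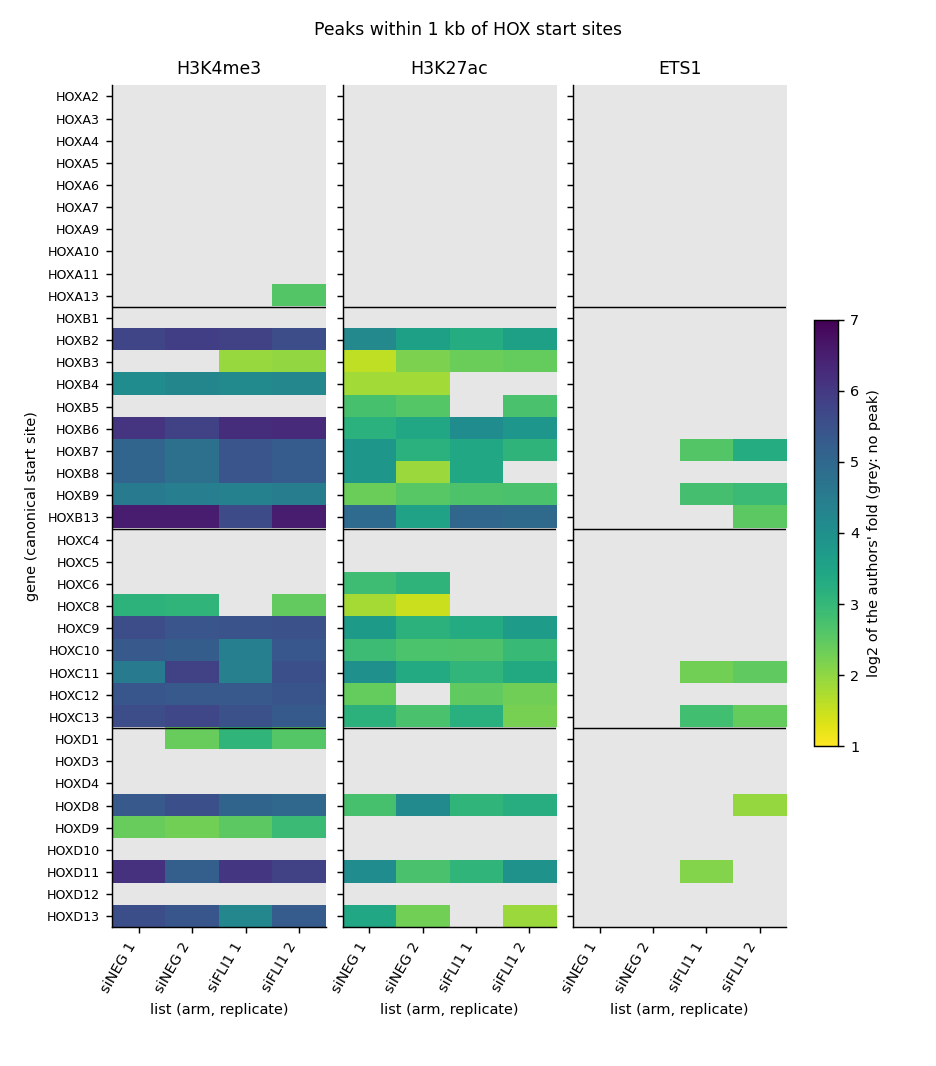
Peaks within 1 kb of the canonical start site of the 38 HOX genes (rows) in each peak list (columns; 2 lists per arm) for H3K4me3, H3K27ac and ETS1. Colour is the log2 of the authors' fold for the strongest such peak and grey means no peak; HOXA is grey but for 1 H3K4me3 cell at HOXA13, and ETS1 is grey in both siNEG columns.

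The HOXA cluster was bare. No H3K27ac, ETS1 or ab4729 list held a peak anywhere in its window, and 3 of the 4 H3K4me3 lists held none. The exception was a single peak of 334 bp at the start of HOXA13, the gene known for its part in digit and genital development, in siFLI1 replicate 2. Its fold, the authors' ratio of the summit over local background, was 6.05, against a median of 24.8 in that list. The nearest other H3K4me3 peaks were 235 kb below the genes, at the start of SKAP2, and 460 or 461 kb above them. EVX1, the homeobox gene beside HOXA13, and the cluster RNAs HOTTIP, HOTAIRM1, HOXA-AS2, HOXA-AS3, HOXA10-AS, HOXA11-AS and MIR196B had no peak within 1 kb of their starts in any list. A peak list does not show whether a sequence is unmarked or missing from the cells' genome, and which of these holds here was not tested.

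In HOXB, marks covered most of the genes from HOXB2 to HOXB9 and, apart from them, HOXB13. HOXB13, a regulator of prostate development, had H3K4me3 folds of 91.6 and 91.3 in the siNEG lists and 49.1 and 93.9 in the siFLI1 lists, the highest of the HOXB genes in every list but siFLI1 replicate 1. The peak over it was 12.9 to 14.1 kb long and also held the starts of PRAC1 and PRAC2. HOXB6, active in limb and blood precursors, had folds of 67.3 and 56.7 in siNEG and 74.4 and 78.5 in siFLI1. HOXB2, used in the hindbrain, had 53.9 and 59.4, then 56.6 and 48.2. HOXB7 and HOXB8 shared 1 peak, with 33.1 and 27.4, then 42.6 and 38. HOXB9 had 20.7 to 23.2 and HOXB4, a factor of blood stem cells, 17 to 19.1 over the 4 lists. HOXB1, the most anterior gene of the cluster, was 8.15 kb or more from the nearest H3K4me3 or H3K27ac peak, and HOXB5 was 3.69 kb or more from H3K4me3 but H3K27ac within 1 kb in 3 of 4 lists.

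In HOXC the marks lay over the posterior genes and, apart from them, between the canonical starts of HOXC8 and HOXC6. HOXC13, needed for hair and nails, had H3K4me3 folds of 47.9 and 52.9 in siNEG and 45.3 and 39.6 in siFLI1, and HOXC12 had 42.2 and 40.3, then 39.8 and 43.5. HOXC9 and HOXC10, used in the lower trunk, had folds of at least 42.8 in all 4 lists for HOXC9 and of 40.2, 37.5, 21.3 and 41.4 for HOXC10. HOXC11, whose peak also held the start of the long RNA HOTAIR, had 23 and 56.0, then 21 and 46.3. HOXC8 had weak peaks of 8.74 and 8.45 in siNEG and 5.40 in siFLI1 replicate 2, and none in siFLI1 replicate 1. The canonical start of HOXC5 was 4.14 kb or more from the nearest peak of either mark, but its RefSeq start, chr12:54016888, lies 16.2 kb away within the H3K4me3 region chr12:54016027-54021973, which was in all 4 lists. The canonical starts of HOXC4 and HOXC6 had no H3K4me3, but other start sites of both genes did. The start of HOXC4 at chr12:54016931, 36.9 kb upstream, lay at a peak with folds of 40.6 and 31.6 in siNEG and 25.0 and 36.4 in siFLI1. With any start site of a protein-coding transcript, 21 of 38 HOX genes, or 55.3%, were marked in each arm, against 62.5% of all protein-coding genes in siNEG and 63.6% in siFLI1.

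In HOXD, 3 blocks carried both marks. HOXD11, which patterns the forearm and kidney, had H3K4me3 folds of 70.6 and 36.4 in siNEG and 66.5 and 57.1 in siFLI1. HOXD13, the digit gene, had 47.1 and 42.0, then 18.8 and 38. HOXD8 had 40.2 and 46.5, then 33.5 and 32.1. The peak with the highest fold of the cluster in 3 of 4 lists lay beside HOXD8, at the start of HOXD-AS2 and at an upstream start of HOXD3 (chr2:176136957), with 65.5 and 113 in siNEG and 80.6 and 74.5 in siFLI1. HOXD9 had H3K4me3 alone, with low folds of 5.26 and 4.88, then 5.74 and 7.56, and HOXD1, at the anterior end, had 5.25 in siNEG replicate 2, 8.36 and 5.99 in siFLI1 and none in siNEG replicate 1.

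HOXD10, which lies between HOXD11 and HOXD9, had no mark at its start site in any list. The nearest H3K4me3 peak was 5.20 and 5.28 kb away in siNEG and 5.73 and 5.71 kb away in siFLI1. The nearest H3K27ac peak was 3.21 to 7.78 kb away, and 9.25 and 9.66 kb away in the ab4729 lists. Its only protein-coding start in the annotation is the canonical one. The canonical starts of HOXD3, HOXD4 and HOXD12 were also unmarked, for HOXD12 and HOXD4 with the nearest H3K4me3 at 2.00 to 2.08 kb and at 10.5 to 10.9 kb. Peak lists measure chromatin and not RNA, and the RNA of these genes was not analysed here.

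**Figure D2:**
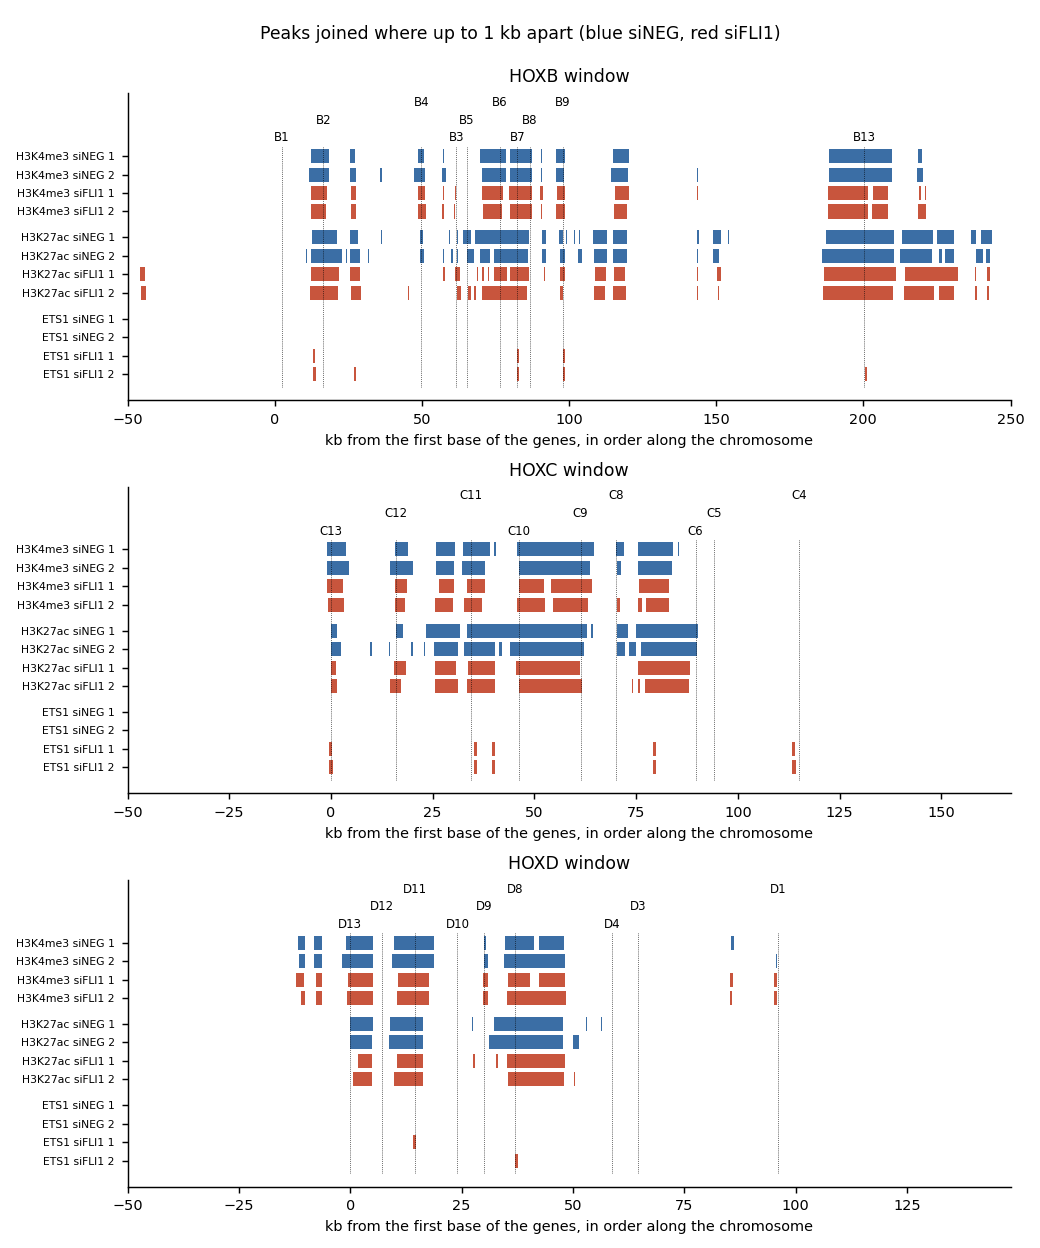
Peaks along the HOXB, HOXC and HOXD windows, joined where they lie up to 1 kb apart (bars; x axis in kb from the first base of the genes), in rows by target, arm and replicate, with siNEG in blue and siFLI1 in red; ETS1 bars are drawn wider than the peaks. Dotted lines are the canonical start sites; HOXA, with 1 peak in all, is not drawn, and the H3K4me3 bar at HOXB13 and that over HOXC10 and HOXC9 are each split in both siFLI1 rows.

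Few H3K4me3 promoters differed between the arms. Of the 38 genes, 16 were marked in all 4 lists and 18 in none. HOXB3 was called gained, meaning a peak in both siFLI1 lists and in neither siNEG list, which applied to 0.933% of all protein-coding genes. The peak was weak, with folds of 3.77 and 3.91 and a −log10 q of 4.16 and 4.66, so the call ends at a limit of 5. It concerns the canonical start, and other HOXB3 starts had H3K4me3 in all 4 lists, such as chr17:48579357 with 17, 19.1, 17.5 and 18.7. None was called lost, the opposite case, which applied to 0.195% of genes. HOXA13, HOXC8 and HOXD1 differed between the lists of an arm.

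H3K27ac lay at 18 of 38 HOX start sites in both siNEG lists, against 43.4% of all protein-coding genes, and at 13 in both siFLI1 lists, against 47.3%. By cluster the counts were 0, 9, 6 and 3 for HOXA, HOXB, HOXC and HOXD in siNEG and 0, 6, 5 and 2 in siFLI1. The order of the arms depends on the distance of 1 kb, since 10 start sites in siNEG and 11 in siFLI1 lay inside a peak in both lists. HOXB4, HOXC6 and HOXC8 were called lost, which applied to 0.529% of all genes, and none was called gained, which applied to 1.72%. At HOXB4 the siNEG folds were 3.54 and 3.58 and at HOXC8 3.48 and 2.79, above 23.4% of the list at most. HOXC6 had 7.27 and 8.57, above 77.3% and 87.7% of the lists, from peaks of 2.46 and 2.91 kb whose edge lay within 1 kb of the start. These peaks belong to the region chr12:54014891-54027908, which was in all 4 lists and whose nearest edge in siFLI1 lay 1.34 and 1.58 kb from the start. The region called lost at HOXC6 had folds of 3.21 and 2.63. The call concerns its canonical start, and the HOXC6 starts at chr12:53994944 and chr12:54015897 had H3K27ac in all 4 lists. At HOXB4 the −log10 q was 4.29 and 4.21 and at HOXC8 5.65 and 3.49, so both calls end at a limit of 5. None of the 3 genes had a peak in either ab4729 list, siNEG included. HOXB5, HOXB8, HOXC12 and HOXD13 lacked H3K27ac in 1 list each, and the other 12 genes with the mark had it in all 4 lists.

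At HOXD13 the nearest H3K27ac lay farther from the start site in siFLI1 cells. It was 0.0400 and 0.0180 kb from the start in the siNEG lists and 1.72 and 0.587 kb away in the siFLI1 lists, so the arms did not overlap. In the ab4729 lists the distances were 0.122 kb in siNEG and 1.83 kb in siFLI1, the same order. H3K4me3 covered the HOXD13 start in all 4 lists. The distances to H3K27ac also did not overlap between the arms at other HOX genes. They were longer in siFLI1 at HOXB4 and HOXC4, for example, and shorter at HOXB3. The share of all protein-coding genes with such distances was not computed, so nothing particular to HOXD13 is read from them.

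Less of the clusters lay under peaks in siFLI1 cells. H3K4me3 peaks covered 133 and 138 kb of the 4 windows in siNEG and 115 and 118 kb in siFLI1, with means of 135 ± 3.57 (SD, n = 2) and 117 ± 2.26 kb (SD, n = 2). The log2 ratio was -0.21 (pooled SD between lists 0.033), and over the whole genome it was -0.10. H3K27ac peaks covered 165 and 161 kb in siNEG and 138 and 133 kb in siFLI1, with means of 163 ± 3.06 (SD, n = 2) and 135 ± 3.89 kb (SD, n = 2). This log2 ratio was -0.27 (pooled SD between lists 0.035), while over the whole genome it was 0.15. By number of peaks in place of length, the log2 ratio for H3K4me3 was -0.09 (exact two-sided permutation p = 0.67). In length the arms did not overlap for either mark, in the windows or over the whole genome. For the windows the exact two-sided permutation test gave p = 0.33 for both marks, the smallest p that 2 lists against 2 allow.

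The difference was not equal over the clusters. For H3K4me3 the log2 ratio was -0.31 in HOXC (44.8 ± 0.245 to 36.2 ± 0.931 kb), -0.18 in HOXB (58.7 ± 2.25 to 51.7 ± 0.746 kb) and -0.15 in HOXD (31.8 ± 1.07 to 28.7 ± 0.351 kb), each ± the SD of 2 lists. For H3K27ac it was -0.42 in HOXD (27.1 ± 0.175 to 20.2 ± 0.530 kb), -0.37 in HOXC (50.1 ± 2.43 to 38.9 ± 1.58 kb) and -0.17 in HOXB (86.1 ± 0.805 to 76.3 ± 1.78 kb). Differences between clusters were not tested. The ab4729 libraries went the other way in length, with 56.7 kb in siNEG and 70.0 kb in siFLI1, a log2 ratio of 0.30, but their whole lists differed by 0.73. As a share of all sequence under peaks, the HOX windows held 0.368% in siNEG and 0.274% in siFLI1 for ab4729, 0.262% and 0.275% against 0.199% and 0.202% for the replicated H3K27ac lists, and 0.307% and 0.308% against 0.284% in both lists for H3K4me3. In all 3 sets the HOX share of the list was lower in siFLI1 cells.

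**Figure D3:**
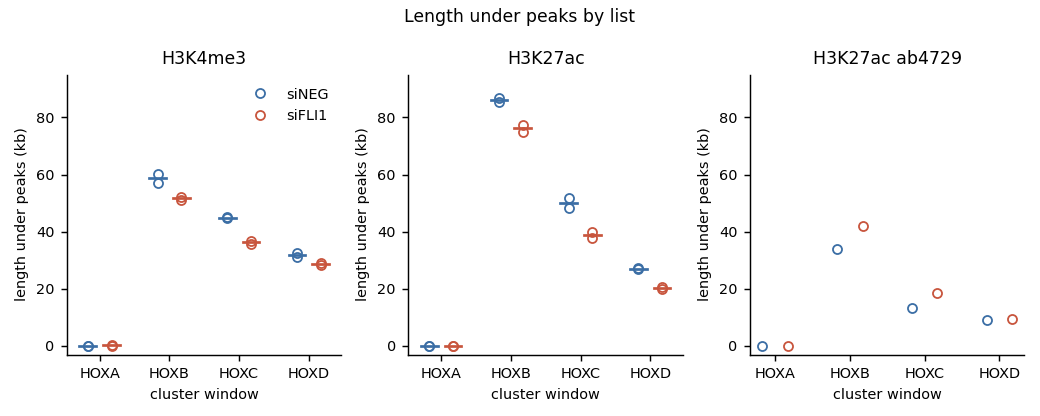
Length under peaks (kb) in each cluster window, by list (open circles) with the mean of each replicated arm (bars), siNEG in blue and siFLI1 in red. Every siFLI1 circle lies below every siNEG circle in HOXB, HOXC and HOXD for H3K4me3 and H3K27ac, while the single ab4729 libraries lie higher in siFLI1.

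Most shared regions were shorter and few were lost. Of 50 H3K4me3 regions in the windows (peaks of the 4 lists merged where they share 1 bp), 25 were held by all lists, 2 were called gained against 2.17% of all regions, and 1 was called lost against 2.83%. Leaving out siNEG replicate 1 gave 15 lost regions, or 30% against 17.3% of all regions, and leaving out siNEG replicate 2 gave 10, or 21.3% against 13.8%. Leaving out siFLI1 replicate 2 gave 3 lost (6% against 4.16%), and leaving out siFLI1 replicate 1 gave 4 gained (7.69% against 7.48%). Among the 25, 17 were shorter in both siFLI1 lists than in both siNEG lists, or 68.0% against 37.2% of all such regions, and 1 was longer, against 17.3%. The longer one was at HOXD9, with 0.363 and 0.788 kb in siNEG and 1.15 and 1.10 kb in siFLI1. Wide regions were shorter more often everywhere: of the 14 HOX regions of at least 4 kb 10 were shorter, or 71.4% against 51.8%, and none was longer, against 9.45%.

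The H3K27ac regions gave a similar split. Of 28 in all lists, 14 were shorter in siFLI1, or 50% against 21.3% of all such regions, and 2 were longer, against 35.4%. Of those of at least 4 kb, 9 of 14 were shorter, or 64.3% against 27.3%, and none was longer, against 40.5%. The comparison of lengths and the limit of 4 kb were chosen after the data had been seen and carry no test. Of all 100 H3K27ac regions in the windows, 9 were called lost, against 4.86% of all regions, and 2 gained, against 8.19%. Leaving out siNEG replicate 1 gave 31 lost regions (35.2% against 19.2% of all regions) and 4 gained (4.55% against 12.8%), and leaving out siNEG replicate 2 gave 33 lost (38.4% against 19.4%). Leaving out siFLI1 replicate 1 gave 5 gained regions (5.21% against 22.4%) and leaving out siFLI1 replicate 2 gave 9 (9% against 25.2%).

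**Figure D4:**
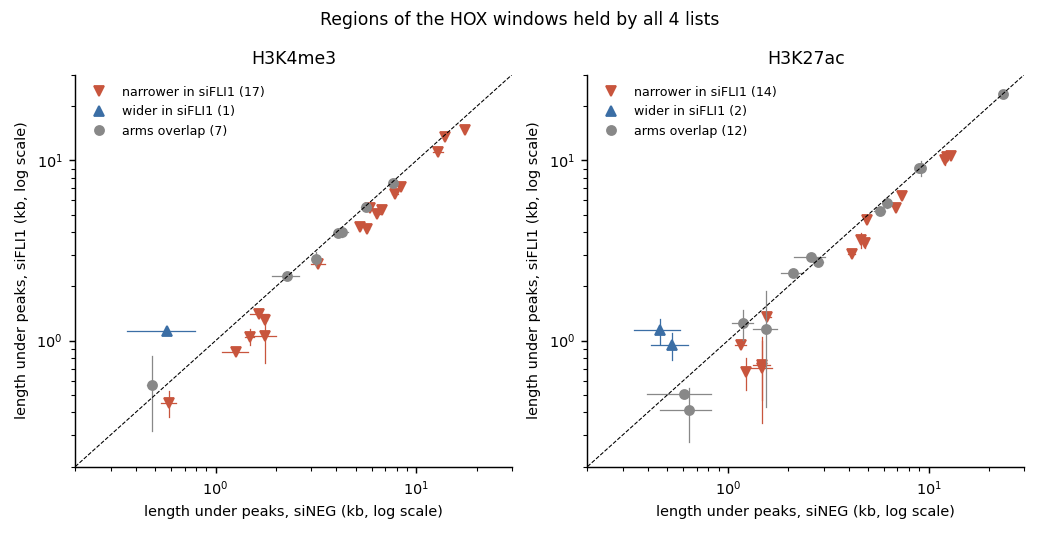
Length under peaks in siNEG (x axis) and siFLI1 (y axis), both in kb on log scales, for regions of the HOX windows held by all 4 lists; symbols are means and lines span the 2 lists of an arm, and the dashed line marks equal length. For H3K4me3, 17 of 25 regions lie below the line with arms that do not overlap and 1 above it, and for H3K27ac 14 of 28 below and 2 above.

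Edges lay differently at several genes. The H3K4me3 domain over HOXB13, with peaks joined up to 1 kb apart, was 21.5 kb long in both siNEG lists. It was 13.4 and 13.6 kb long in the siFLI1 lists, where a gap of more than 1 kb set off a second block of 5.32 and 5.61 kb beyond the gene. The H3K27ac region over HOXB13 overlapped between the arms, with 23.2 and 23.7 kb in siNEG and 23.5 and 23.4 kb in siFLI1. The domain over HOXC10 and HOXC9 was 18.8 and 17.6 kb long in siNEG and was split in siFLI1 into a block of 6.07 and 6.82 kb at HOXC10 and one of 10.1 and 8.57 kb at HOXC9. Such splits rest on the joining limit of 1 kb and also occurred between replicates. At HOXD8 the H3K4me3 domain was whole in replicate 2 of both arms (13.7 kb in siNEG and 13.2 kb in siFLI1) and in 2 blocks in replicate 1 of both (6.60 and 5.65 kb in siNEG, 5.01 and 5.81 kb in siFLI1). At HOXB2 the H3K4me3 region was 6.13 and 6.62 kb in siNEG and 4.99 and 5.07 kb in siFLI1, at HOXC11 it was 5.55 and 5.83 kb, then 4.07 and 4.27 kb, and at HOXD11 8.33 and 8.36 kb, then 7.13 and 7.19 kb. The H3K4me3 regions at HOXB7 and HOXB8 and at HOXD13 overlapped between the arms.

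The gap in the HOXC10 and HOXC9 domain lay over MIR196A2, a microRNA gene at chr12:53991738-53991847 (+) known to target HOX transcripts. Its hairpin was overlapped by H3K4me3 and by H3K27ac peaks in both siNEG lists and by none in the siFLI1 lists, where the nearest were 0.664 and 0.260 kb away for H3K4me3 and 0.140 and 0.176 kb away for H3K27ac. Within 1 kb of the start of MIR196A2 both marks were present in all 4 lists, so neither was called lost there. The share of genes that differ in this way by overlap was not computed. The ab4729 lists had no peak over the hairpin in either arm. MIR196A1, in HOXB, had H3K27ac within 1 kb of its start in both siNEG lists, with folds of 3.96 and 4.16, and in neither siFLI1 list. These peaks did not overlap each other, with chr17:48631926-48632302 in siNEG replicate 1 and chr17:48632350-48632795 in siNEG replicate 2. No region there was therefore called lost. The mature sequences below (RefSeq, GRCh38.p14, seed of bases 2 to 8 in capitals) are shown because MIR196A1 and MIR196A2 give the same product, and MIR196B, in the bare HOXA cluster, gives one with the same seed.
hsa-miR-196a-5p: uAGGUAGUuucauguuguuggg
hsa-miR-196b-5p: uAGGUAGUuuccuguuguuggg
hsa-miR-10a-5p: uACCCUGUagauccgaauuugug
MIR10A, beside HOXB4, has another seed. It had H3K4me3 within 1 kb of its start in all 4 lists, over the hairpin itself in siFLI1 replicate 2 alone. MIR10B, between HOXD8 and HOXD4, was 9.26 to 9.66 kb from the nearest H3K4me3.

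Few of the other genes in and beside the clusters differed. Of 23 further genes listed for the clusters, all RNA genes but PRAC1 and PRAC2, 11 had H3K4me3 in both siNEG lists and 13 in both siFLI1 lists, against 60.7% and 61.8% of all protein-coding genes, with none called gained or lost. H3K27ac was present at 12 and 11, against 43.4% and 47.3%, with MIR196A1 the 1 called lost, against 0.529%. That call rests on siNEG peaks that did not overlap each other. EVX2, the homeobox gene next to HOXD13, was the 1 of 10 flanking genes called lost for H3K4me3, against 0.195% of all protein-coding genes. The region beside it was in all lists but shorter in siFLI1 (1.74 and 1.79 kb in siNEG, 1.26 and 1.34 kb in siFLI1), and its peaks there lay beyond 1 kb of the start.

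The 9 lost H3K27ac regions lay 4 in HOXC, 4 in HOXB and 1 in HOXD, and all were at most 1.21 kb long. In HOXC they were chr12:53980195-53980950 and chr12:53982934-53983960 upstream of HOXC10, chr12:54009074-54010282 at HOXC8 and chr12:54028311-54028914 at HOXC6. In HOXB they were chr17:48577786-48578788 at HOXB4 and chr17:48677351-48677732, chr17:48741762-48742268 and chr17:48768649-48769208 away from the genes. In HOXD it was chr2:176126146-176127042, 2.66 kb from the start of HOXD8. The folds of these peaks were between 2.63 and 6.09. The 2 gained H3K27ac regions, chr17:48482780-48483468 and chr17:48483659-48484639, lay in the flank beyond HOXB1. For H3K4me3 the gained regions were chr17:48589438-48590086 at HOXB3 and chr17:48749357-48749694, and the lost one was chr12:53942253-53943224 beside HOXC13-AS. Requiring a −log10 q of at least 5 of every peak before merging gave 5 lost and 3 gained H3K27ac regions and 1 lost and 0 gained H3K4me3 regions, which need not be among those listed.

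No ETS1 peak lay in any HOX window in the siNEG lists. The siFLI1 lists held 9 and 11, of which 8 regions were in both, 5 in HOXC, 3 in HOXB and none in HOXA or HOXD. Of the 12 ETS1 regions in the windows 8, or 66.7%, were therefore called gained, against 44.0% of all ETS1 regions, and 0 were called lost, against 0.0739%. Since the siFLI1 lists were counted as 1 sample, presence in both is no replicate support for these calls or for those at start sites. At start sites, 4 of 38 HOX genes had ETS1 in both siFLI1 lists (HOXB7, HOXB9, HOXC11 and HOXC13) and 0 in the siNEG lists, against 6.86% and 0.644% of all protein-coding genes. These 4 were called gained, against 5.23% of all genes, and 0 lost, against 0.00998%. HOXB13 and HOXD8 had a peak in siFLI1 replicate 2 alone and HOXD11 in replicate 1 alone.

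The HOX ETS1 peaks stood above 5.57% to 81.8% of the peaks of their list in replicate 1 and above 1.78% to 82.7% in replicate 2. At HOXB7 the folds were 6.07 and 9.68, above 45.4% and 82.7% of the list. At HOXB9 they were 6.83 and 7.54, at HOXC13 7.07 and 5.37, and between HOXC11 and HOTAIR 4.86 and 5.56. At chr12:54017881-54018418, near the upstream start of HOXC4, they were 8.41 and 8.84, the highest of the windows in replicate 1 and below HOXB7 in replicate 2. Of the 8 regions, 6 overlapped H3K4me3 peaks in both siFLI1 lists. The others were chr12:53978345-53978619, 3.39 kb from HOTAIR, with H3K27ac alone, and chr12:54052111-54052522, 1.31 kb upstream of HOXC4, with neither mark. The siNEG ETS1 lists were much shorter, and when each list was reduced to its strongest peaks in equal number, 0 HOX regions were called gained.

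The 2 HOXC4 summits are shown, the site with the highest HOX fold in replicate 1 and the site with neither mark, 40 bases to each side of the summit in siFLI1 replicate 2 on the plus strand of hg38, with the ETS core GGAA or its complement TTCC in capitals. They are chr12:54017996-54018076 and chr12:54052253-54052333.
Upstream start of HOXC4: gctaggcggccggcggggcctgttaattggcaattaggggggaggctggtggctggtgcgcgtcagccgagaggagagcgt
Site with neither mark: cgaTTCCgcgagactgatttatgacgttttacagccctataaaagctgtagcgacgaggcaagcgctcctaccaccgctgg
The first holds no core and the second holds 1. Over all 2635 summits of that list, 57.7% of windows of this length held GGAA on either strand and 8.54% held the longer CCGGAA, and of the 11 HOX summits 5 held GGAA and 0 held CCGGAA.

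Genes that work with HOX proteins or regulate them are given beside the shares over all protein-coding genes, which in siNEG were 60.7% for H3K4me3 and 43.4% for H3K27ac, with 5.23% called gained for ETS1. All 9 genes of the cofactor families PBX, MEIS and PKNOX, which bind DNA together with HOX proteins, had H3K4me3 in all 4 lists, and 5 had H3K27ac in both lists of each arm. MEIS1 had H3K27ac folds of 27.4 and 15.8 in siNEG and 23.8 and 16.6 in siFLI1. ETS1 was called gained at 3 of the 9: PBX2, PBX3 and MEIS2. All 8 trithorax and Menin genes had H3K4me3 in both arms. KMT2A, one of their methyltransferases, had ETS1 in all 4 lists, with folds of 32.3 and 35.0 in siNEG and 25.7 and 33.7 in siFLI1, where no HOX gene had any in siNEG.

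The 15 genes of the Polycomb list include 2 that are not Polycomb genes, KDM6A and KDM6B. All 15 had H3K4me3 in both arms, and 12 had H3K27ac in both siNEG lists and 13 in both siFLI1 lists. For ETS1, EZH1, BMI1, PCGF2, CBX2, RING1, KDM6A and KDM6B, the last 2 being demethylases that remove the Polycomb mark, were called gained. That is 7 of the 15 listed, these 2 demethylases included, against 5.23% of all genes. The lists were drawn up by name, and nothing particular to them is read from these counts. Of 7 related homeobox genes outside the clusters (CDX, GSX, PDX1 and MNX1), MNX1 alone had H3K4me3, with folds of 7.32 and 7.72 in siNEG and 9.59 and 10.3 in siFLI1.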

How the data were processed

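TC-32 cells with siNEG or siFLI1 were profiled by chromatin immunoprecipitation sequencing, and 14 peak lists were used (2 per arm for H3K4me3, H3K27ac and ETS1, 1 per arm for ab4729). Input libraries were not analysed here. The submitters' processing notes name cutadapt 4.4, BWA 0.7.17, Picard 2.17.11 and MACS2 2.1.1, and the builds GRCh38, hg38 and dm6, with no role or order. The control library and calling settings were not given in the sources used here. The deposited fold column is the authors' ratio of a peak summit over local background. The deposited −log10 columns hold the authors' p-value and, after their correction, q-value. The deposited score column, a whole number, was not used. These values describe peaks within a list only. A peak's presence or length depends on depth and on the strength of the immunoprecipitation.

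Peaks outside the autosomes, X and Y were left out. No peak end passed a chromosome end of hg38. A start site was that of the canonical transcript in GENCODE release 44, and a promoter mark was a peak within 1 kb. For each target the 4 lists were merged where intervals shared 1 bp. Covered length was compared by an exact two-sided permutation test over lists. Merging and calls were tested on 2000 simulated regions, of which 100% were called as made. These regions lay far apart with their lists set in advance. The check therefore covers the code and not the reliability of calls in these data. To compare replicates, whole tag heights at summits were recovered for 97.7% to 100% of the peaks used. Software was Python 3.11.15, NumPy 2.4.6, SciPy 1.17.1 and matplotlib 3.10.9.

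The genes, gene lists and questions were chosen with earlier results of these data known. Genes named are the 38 members, listed cluster genes, neighbours and regulators, every gained or lost region and the widest domains. One HOX gene beyond the 38 is not reported here.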

Additional observations from a re-analysis of the deposited data

How the results depend on the processing

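Of 125 alternatives over 14 results, 102 left the result within the limits set, 22 moved a count by more than 1.5 times and 1 turned the sign of a ratio. The order of the arms in the count of H3K27ac start sites, which is not among these results, turned as well. The log2 ratio of H3K27ac length in the HOX windows was 0.30 in the ab4729 libraries in place of -0.27. As a share of all sequence under peaks, an alternative added after seeing the data, the ratios were -0.42 for H3K27ac and -0.11 for H3K4me3. With replicates paired by number (replicate block) they stayed -0.27 and -0.21 (exact two-sided permutation p = 0.50, the smallest with 2 pairs). For ETS1 no log2 ratio could be formed, since the siNEG lists held no peak.

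H3K4me3 regions called gained were 2 in the main comparison, 0 with a −log10 q of at least 5, and 1 with 50% overlap, with no peak of the other arm within 1 kb, or with no flank. The 1 lost H3K4me3 region became 0 with no peak of the other arm within 1 kb. With no flank 0 H3K27ac regions were gained, and with a flank of 100 kb 4. With peaks of a −log10 q of at least 5 alone, 5 H3K27ac regions were called lost in place of 9. In both lists of the arm, 10 HOX start sites in siNEG and 11 in siFLI1 lay inside an H3K27ac peak, against 18 and 13 within 1 kb, so the order of the arms turned. For ETS1 in siFLI1 cells, 1 HOX start site lay inside a peak, 0 were marked when each list was reduced to its strongest peaks in equal number, and gained regions numbered 5 with a −log10 q of at least 5 and 0 with equal numbers.

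Leaving out 1 list at a time gave 2 to 4 gained and 1 to 15 lost H3K4me3 regions, 3 to 9 gained and 10 to 33 lost H3K27ac regions, 8 to 11 gained ETS1 regions, and log2 ratios of -0.24 to -0.19 for H3K4me3 and -0.30 to -0.24 for H3K27ac. The lost counts were highest without a siNEG list. The causes were not tested. Depth was not stated, so a region absent from a list may have been missed at its depth.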

Other observations

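Runs of the 4-base unit GGAA, which EWSR1::FLI1 is known to bind, were searched on both strands of the windows as 4 or more units in a row. HOXA held 1 run, HOXB 6, HOXC 2 and HOXD 0. Of the 9 lost H3K27ac regions, 1 had a run within 1 kb, and it was the 1 of all 100 H3K27ac regions in the windows that did. Over the genome 2.73% of H3K27ac regions had one, 12.9% of those called lost and 0.917% of those called gained. The HOXB region, chr17:48677351-48677732, had folds of 3.04 and 3.73 in the siNEG lists and no peak in the siFLI1 lists or in either ab4729 list. Beside it lie 2 runs, of 7 and 5 units, the first 0.207 and 0.257 kb and the second 0.183 and 0.233 kb from the peaks of the siNEG lists. They are shown on the plus strand of hg38, chr17:48677087-48677198, with the units of both runs in capitals as their complement TTCC.
Runs in HOXB: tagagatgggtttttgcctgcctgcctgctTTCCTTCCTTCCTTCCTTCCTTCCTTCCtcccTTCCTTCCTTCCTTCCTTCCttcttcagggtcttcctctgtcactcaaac
The longest run of the windows, 15 units at chr7:27230632-27230691, 30.5 kb from HOXA13, the nearest HOX gene, was 365 to 431 kb from the nearest H3K27ac peak. A match of letters does not show binding.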
